A study of Mus musculus with 2 samples.

Results

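The transcripts described here come from genes of the ATP-dependent chromatin remodellers, of cohesin and of condensin, as they were recovered with the heterochromatin protein HP1 alpha in NIH3T3 cells. NIH3T3 is an established mouse fibroblast line, and no treatment or genetic change is given for it. The members were all genes in the table whose symbols match those of remodeller, cohesin and condensin subunits and of related ARID and MBD genes, 44 of the 3134 genes listed. The rule read symbols alone, within a table that lists only genes past a count limit given below. The assay was eCLIP, in which protein and RNA are joined by ultraviolet light and the RNA that comes down with the protein is sequenced. There was 1 library precipitated with an HP1 alpha antibody, and it was set against 1 library without antibody, labelled as input.

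Remodellers use ATP to slide, evict or exchange nucleosomes, and they fall into the SWI/SNF, ISWI, CHD and INO80 families. Cohesin and condensin are rings built on paired SMC proteins; cohesin holds sister chromatids and extrudes interphase loops, and condensin compacts chromosomes for mitosis. HP1 alpha binds histone H3 methylated at lysine 9 in heterochromatin, and it can also bind RNA. The values below concern the RNA of these genes, not the proteins they encode.

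Each value below rests on 1 library per group, so no difference could be set against replicate spread. The ratio is the HP1 alpha count over the input count with each scaled to the summed counts of all listed genes, 513965 for HP1 alpha and 830031 for the input. Its 95% interval is exact and covers counting error only. The columns are headed MEF and mock where the labels give NIH3T3 and input, and they were matched by antibody. Of 10 fibroblast marker genes 9 were listed, with ratios between 0.626 and 0.895, whereas 0 of 13 immune, epithelial and endothelial markers were listed. Every listed gene had at least 100 counts in 1 of the libraries or both. All 44 members had at least 108 input counts. Of them 11, and of all 3134 listed genes 1433, had fewer than 100 HP1 alpha counts and were listed only through the input. For 3 of these 11 members, Smarca5, Smarcb1 and Baz1a, that limit alone kept the ratio below 1.

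No member differed by 2-fold between the libraries. Of the 44, 0 were higher and 0 were lower at 2-fold with an interval excluding 1, against 2.36% of all listed genes that were higher and 0.83% that were lower. At 1.5-fold 0 members were higher (7.63% of all listed genes) and 4 were lower (12.3%), namely Smc4, Hells, Smc3 and Ncapd2. The interval lay below 1 for 14 members (31.8%), near the 32.6% of all listed genes, and above 1 for 2 members (4.55%), Arid1b and Mbd5, against 15.4% of all. A ratio above 1 was seen for 9 members, and for 968 of all 3134 listed genes (30.9%); a ratio below 1 was seen for 35 members and for 2166 of all. Ratios ran between 0.637 for Smc4 and 1.44 for Arid1b. Their median log2 ratio was -0.23, beside -0.21 over all listed genes. Other scalings moved every gene up together, by 0.20 on the log2 scale with TMM factors and by 0.21 with DESeq2 size factors. With DESeq2 factors, 6 members (13.6%) had intervals above 1, against 23.9% of all listed genes, and 8 (18.2%) below 1, against 12.4%. With TMM factors 6 members likewise lay above 1 and 8 below, against 23.3% and 13.7% of all listed genes. With either, 21 members had ratios above 1.

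**Figure D1:**
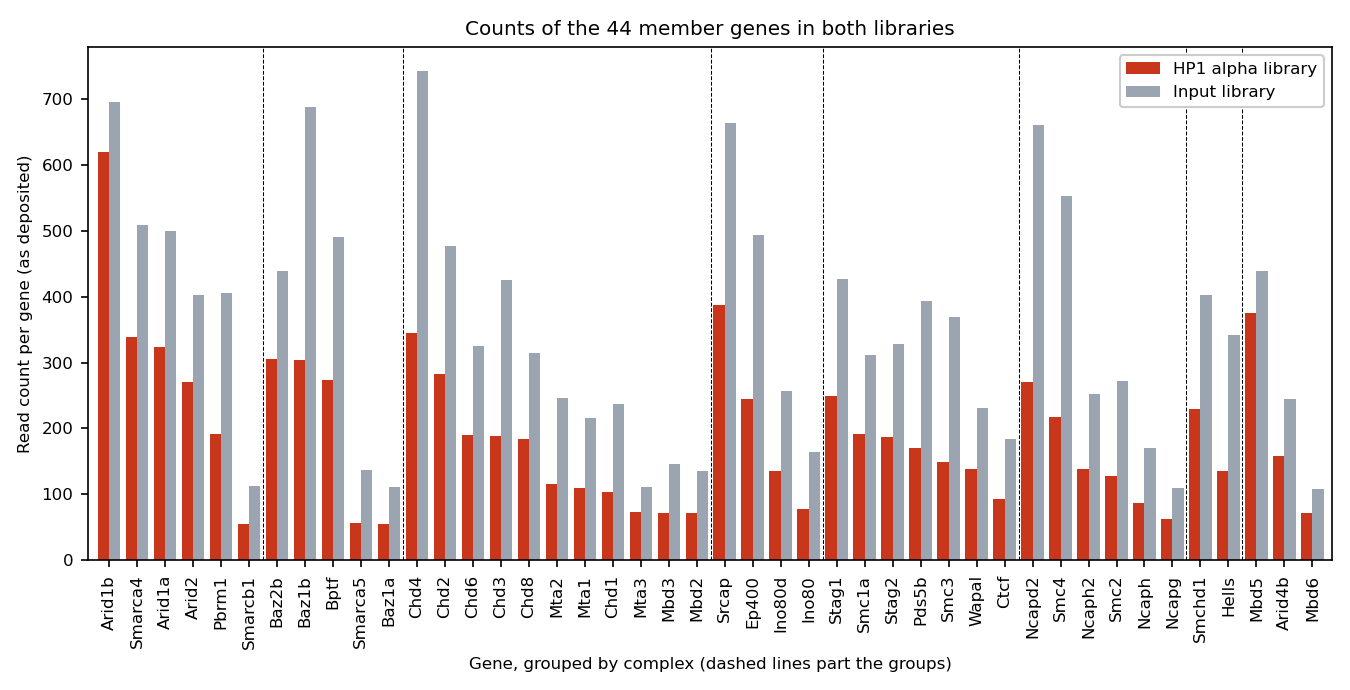
Read counts as deposited (vertical axis) of the 44 genes, grouped by complex, with the HP1 alpha library in red and the input in grey. Each bar is 1 library, so there are no error bars; Arid1b is the tallest HP1 alpha bar at 620 counts and Chd4 the tallest input bar at 742.

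The genes together held 8428 HP1 alpha counts and 15244 input counts. This was 1.64% (1.61 to 1.67, exact binomial) of listed HP1 alpha counts and 1.84% (1.81 to 1.87) of listed input counts, a ratio of 0.893 (0.869 to 0.917). The median member had 177.5 HP1 alpha counts and 326.5 input counts, above the medians over all listed genes of 107 for HP1 alpha and 186 for input. Per kb of gene span, the level in the HP1 alpha library was highest for Ncapd2 with 11.2 counts per kb, against 27.4 in the input. It was lowest for Baz1a, with 0.453 counts per kb in HP1 alpha and 0.914 in the input. Of the 87 protein-coding genes that RefSeq names by the same symbols, 43 had no row in the table used here, among them Nipbl, Rad21, Smarcc1 and Smarca2, so each complex is seen in part.

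Of the 6 SWI/SNF genes, 4 had ratios above 1, against 30.9% of all listed genes, with Arid1b the highest of all 44 genes and Pbrm1 the 1 gene whose interval lay below 1. SWI/SNF complexes, called BAF or PBAF by their subunits, open chromatin at enhancers and promoters. Arid1b, which encodes a BAF subunit, had 620 HP1 alpha counts and 696 input counts, a ratio of 1.44 (1.29 to 1.61) that lay above 91.0% of listed genes. Its gene (ENSMUSG00000069729.9) spans 353 kb on chromosome 17 from 4994297 to 5347656 in GRCm38.p6. Smarca4, which encodes the ATPase BRG1, had 339 HP1 alpha counts and 509 input counts, a ratio of 1.08 (0.935 to 1.24). Arid1a, the paralog of Arid1b, had 323 HP1 alpha and 500 input counts, for a ratio of 1.04 (0.904 to 1.20), and Arid2, a PBAF subunit, had 270 HP1 alpha and 402 input counts, for a ratio of 1.08 (0.926 to 1.27). These 3 intervals held 1 but lay above it with TMM or DESeq2 factors. Pbrm1, the polybromo subunit of PBAF, had 191 HP1 alpha counts and 406 input counts, a ratio of 0.760 (0.636 to 0.905). Its interval held 1 with TMM (0.730 to 1.04) and DESeq2 (0.736 to 1.05) factors, which left 0 SWI/SNF intervals below 1. The core subunit Smarcb1 had 55 HP1 alpha and 112 input counts, for a ratio of 0.793 (0.564 to 1.10). The 6 genes had a median log2 ratio of 0.084, against -0.21 for all listed genes. With TMM (0.28) and DESeq2 (0.29) factors it could only rise, because these move every gene up together. Relative to the 200 listed genes nearest in span, the median of the 6 was 0.066. On that scale 0 of their intervals lay above 1 and 1, of Pbrm1, lay below.

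The ISWI genes, whose complexes space nucleosomes, had 2 of 5 intervals below 1 and none above, against 32.6% of all listed genes below 1 and 15.4% above. With TMM or DESeq2 factors 1 lay below 1 (Baz1b) and 1 above (Baz2b). Baz1b, the Williams syndrome transcription factor that pairs with the ISWI ATPase, had 304 HP1 alpha counts and 688 input counts, a ratio of 0.714 (0.621 to 0.818). Smarca5, the ATPase SNF2H, had 57 HP1 alpha and 137 input counts, for a ratio of 0.672 (0.484 to 0.922). RefSeq also lists a transcribed pseudogene, Smarca5-ps, and how reads shared with it were counted is not given in the sources used here. Baz1a, the ACF1 subunit, had 55 HP1 alpha and 111 input counts, for a ratio of 0.800 (0.568 to 1.12). Bptf, the largest subunit of NURF, had 273 HP1 alpha and 491 input counts, for a ratio of 0.898 (0.772 to 1.04). Baz2b, a bromodomain protein, was the only ISWI gene with a ratio above 1, with 305 HP1 alpha counts and 439 input counts, or 1.12 (0.966 to 1.30). Smarca5 and Baz1a are among the genes that the listing limit kept below a ratio of 1. The family's median log2 ratio, -0.31, is the value of Baz1a and is therefore no sign of a direction for the family (-0.12 with TMM and -0.11 with DESeq2 factors).

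**Figure D2:**
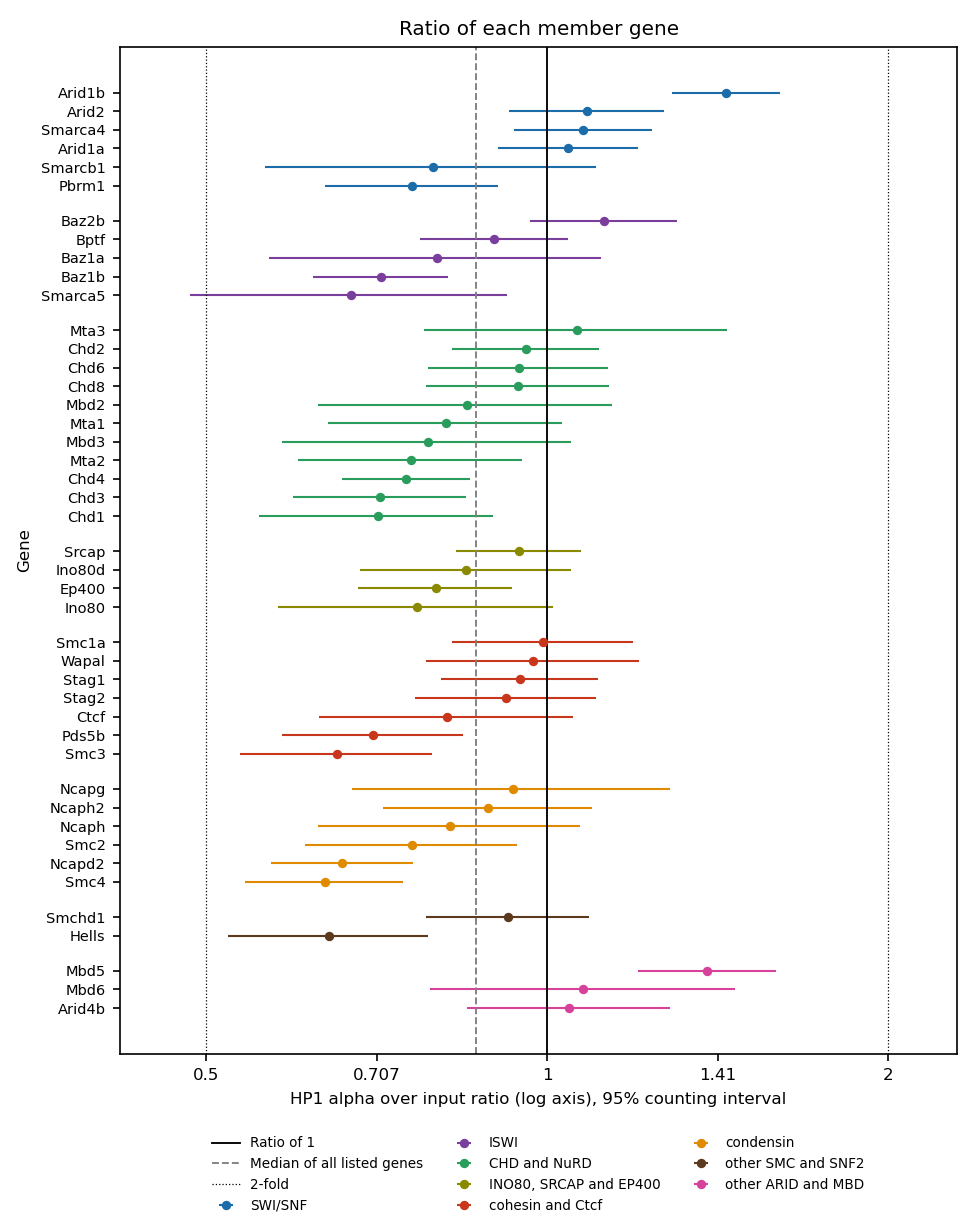
HP1 alpha over input ratio (horizontal log axis) of each gene with its 95% counting interval, coloured by complex; the dashed line is the median of all listed genes and dotted lines mark 2-fold. All 44 points lie between 0.637 and 1.44, inside the 2-fold lines, and the intervals of Arid1b and Mbd5 lie above 1.

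The CHD and NuRD genes had 4 of 11 intervals below 1, near the 32.6% of all listed genes, and none above. With TMM or DESeq2 factors 2 remained below 1, Chd3 and Chd4, while the intervals of Chd1 and Mta2 held 1. Chd4, the main ATPase of the NuRD deacetylase complex, had the most input counts of all members, with 345 HP1 alpha counts against 742, and its ratio was 0.751 (0.659 to 0.854). Its paralog Chd3 had 188 HP1 alpha and 426 input counts, for a ratio of 0.713 (0.597 to 0.848). Chd1, which spaces nucleosomes behind RNA polymerase, had 104 HP1 alpha and 237 input counts, for a ratio of 0.709 (0.557 to 0.896). The NuRD subunit Mta2 had 116 HP1 alpha and 247 input counts, for a ratio of 0.758 (0.603 to 0.949). Intervals of the other 7 held 1. Chd2, a close relative of Chd1, had 283 HP1 alpha counts and 477 input counts and a ratio of 0.958 (0.824 to 1.11). Chd8, a gene tied to autism in humans, had 184 HP1 alpha and 315 input counts with 0.943 (0.782 to 1.14), and its paralog Chd6 had 190 in HP1 alpha and 325 in input with 0.944 (0.785 to 1.13). The NuRD subunits had fewer counts and wider intervals. The scaffold genes Mta1 and Mta3 had 109 HP1 alpha against 216 input counts, with a ratio of 0.815 (0.641 to 1.03), and 73 HP1 alpha against 111 input counts, with 1.06 (0.779 to 1.44). Mbd2, the subunit that binds methylated CpG, had 71 HP1 alpha and 135 input counts with 0.849 (0.628 to 1.14). Its alternative Mbd3 had 71 HP1 alpha and 146 input counts with 0.785 (0.583 to 1.05). The median log2 ratio of the family was -0.29, or -0.095 with TMM and -0.083 with DESeq2 factors.

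The genes of the INO80, SRCAP and EP400 complexes, which exchange or evict histone variants, had ratios below 1 in 4 of 4 cases, as had 2166 of all 3134 listed genes, with 1 interval below 1. Ep400 had 244 HP1 alpha counts and 494 input counts, a ratio of 0.798 (0.681 to 0.932), and its interval held 1 with TMM (0.781 to 1.07) and DESeq2 (0.788 to 1.08) factors. Srcap, the ATPase that deposits H2A.Z, had 388 HP1 alpha and 664 input counts, for a ratio of 0.944 (0.830 to 1.07), which turned above 1 with TMM (1.08) and DESeq2 (1.09) factors. The ATPase gene Ino80 had 78 HP1 alpha and 164 input counts with a ratio of 0.768 (0.579 to 1.01), and the INO80 subunit gene Ino80d had 135 HP1 alpha and 257 input counts with 0.848 (0.684 to 1.05). Their median log2 ratio was -0.28, or -0.082 with TMM and -0.070 with DESeq2 factors.

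The 7 cohesin and Ctcf genes all had ratios below 1, as had 2166 of all 3134 listed genes. The intervals of 2, Smc3 and Pds5b, lay below 1 and 0 lay above, against 32.6% and 15.4% of all listed genes. Smc1a, the direct partner of Smc3 in the ring, was nearly even between the libraries. Smc3 (ENSMUSG00000024974.10, chromosome 19 from 53600396 to 53645831) had 149 HP1 alpha counts and 369 input counts, a ratio of 0.652 (0.535 to 0.791). Smc1a (ENSMUSG00000041133.7, chromosome X from 152016428 to 152061973) had 191 HP1 alpha and 311 input counts, for a ratio of 0.992 (0.824 to 1.19). The genes have spans of 45.5 kb for Smc1a and 45.4 kb for Smc3, and Smc1a shares 459 bases with Ribc1, which has no row in the table used here. Smc1a over Smc3 gave a ratio of ratios of 1.52 (1.16 to 1.99), a quantity that does not depend on how the libraries are scaled. This pair was compared after its values were seen.

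Pds5b, a regulator that helps open and close the ring, had 171 HP1 alpha counts and 393 input counts, a ratio of 0.703 (0.584 to 0.843). The remaining cohesin genes had intervals that held 1. Stag1 had 250 HP1 alpha and 427 input counts with 0.946 (0.806 to 1.11), and its paralog Stag2 had 187 HP1 alpha and 328 input counts with 0.921 (0.765 to 1.11); each encodes an alternative subunit through which cohesin meets chromatin. The releasing factor Wapal, now named Wapl, had 139 HP1 alpha and 231 input counts with a ratio of 0.972 (0.782 to 1.20). Ctcf, the zinc finger protein at which cohesin loops stop, had 93 HP1 alpha and 184 input counts with 0.816 (0.629 to 1.05). The median log2 ratio of these 7 genes was -0.12, and it turned above 0 with TMM (0.080) and DESeq2 (0.092) factors.

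Because Smc1a and Smc3 encode the partners of 1 ring, have nearly equal spans and differed in ratio, the sequences around their starts are shown, from RefSeq in GRCm38.p6. Each runs 250 bases before to 50 bases after the start, on the + strand, at chrX:152016178-152016477 for Smc1a and chr19:53600146-53600445 for Smc3. Capitals mark GGGCGG, the GC box, and CCAAT, each searched on both strands, which do not overlap here.
Smc1a: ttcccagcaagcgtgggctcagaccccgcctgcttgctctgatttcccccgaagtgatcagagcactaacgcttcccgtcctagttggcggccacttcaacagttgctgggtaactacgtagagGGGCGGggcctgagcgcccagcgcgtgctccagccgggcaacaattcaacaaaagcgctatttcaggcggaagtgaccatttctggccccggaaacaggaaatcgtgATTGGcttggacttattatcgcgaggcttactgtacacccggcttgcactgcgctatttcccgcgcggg
Smc3: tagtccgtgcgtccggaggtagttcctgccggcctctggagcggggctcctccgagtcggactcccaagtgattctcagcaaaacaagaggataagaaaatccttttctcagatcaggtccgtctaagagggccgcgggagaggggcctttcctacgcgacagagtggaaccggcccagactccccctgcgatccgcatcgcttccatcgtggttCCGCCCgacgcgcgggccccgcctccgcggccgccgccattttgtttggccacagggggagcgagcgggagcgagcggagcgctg
Each window held 1 GGGCGG, and Smc1a also held 1 CCAAT, against 0 in Smc3. The windows had 58.3% G and C bases for Smc1a and 65.0% for Smc3. Of the 34 members with a promoter in the table, 31 (91.2%) held GGGCGG, as did 72.2% of the other listed genes and 35.9% of all RefSeq promoters of this length. CCAAT was held by 16 of the 34 (47.1%), by 38.3% of the other listed genes and by 37.9% of all promoters. These matches describe letters in the windows and carry no information on binding.

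The condensin genes had the lowest ratio for their summed counts of any complex here. All 6 had ratios below 1, as had 2166 of all 3134 listed genes, and 3 had intervals below 1, against 32.6% of all. With TMM or DESeq2 factors 2 intervals, of Smc4 and Ncapd2, lay below 1, that of Smc2 held 1, and Ncaph2 (1.02 with TMM) and Ncapg (1.07) had ratios above 1. Smc4, an SMC subunit shared by condensin I and II, had the lowest ratio of all 44 genes. It had 218 HP1 alpha counts and 553 input counts, or 0.637 (0.542 to 0.746). Ncapd2, the HEAT repeat subunit of condensin I, had 270 HP1 alpha and 661 input counts, for a ratio of 0.660 (0.570 to 0.761). Smc2, the partner of Smc4, had 128 HP1 alpha and 272 input counts, for a ratio of 0.760 (0.611 to 0.941). Ncaph, the kleisin gene of condensin I, had 87 HP1 alpha and 171 input counts with 0.822 (0.627 to 1.07). Ncaph2, the kleisin gene of condensin II, had 139 HP1 alpha and 253 input counts with 0.887 (0.716 to 1.10). Ncapg, a HEAT repeat subunit of condensin I, had 63 HP1 alpha and 109 input counts, for a ratio of 0.933 (0.673 to 1.28). Together the 6 genes had 905 HP1 alpha counts and 2019 input counts, a ratio of 0.724 (0.669 to 0.783). Their median log2 ratio was -0.34, or -0.14 with TMM and -0.13 with DESeq2 factors. They were also short genes, with a median span of 30.0 kb against 63.7 kb for all 44, and their median log2 ratio relative to genes of like span was -0.043. On that scale the ISWI (-0.29), INO80, SRCAP and EP400 (-0.20) and cohesin (-0.19) medians were lower. Those of CHD and NuRD (-0.039) and SWI/SNF (0.066) were higher. With span set aside in this way, Smc4 (0.799, 0.680 to 0.937) and Ncapd2 (0.827, 0.715 to 0.954) had intervals below 1, and the other 4 held 1.

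Smc4 is the host gene of 2 microRNAs, Mir15b and Mir16-2, which lie within its span (ENSMUSG00000034349.10, chromosome 3 from 69004738 to 69034623). Their mature sequences from RefSeq are shown because reads from them would fall inside the gene with the lowest ratio. Capitals mark the seed, bases 2 to 8.
mmu-miR-15b-5p: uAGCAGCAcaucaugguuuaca
mmu-miR-16-5p: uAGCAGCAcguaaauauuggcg
mmu-miR-15b-3p: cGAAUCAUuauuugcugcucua
mmu-miR-16-2-3p: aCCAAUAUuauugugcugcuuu
The 5p arms share the seed AGCAGCA, the mark of a microRNA family that represses cell cycle genes, and the 3p arms share none. In all, 5 microRNA hairpins lay within 4 of the 44 genes (Smc4, Chd4, Ep400 and Arid1a), and 3 snoRNA genes lay within Ep400, Chd8 and Srcap. Scarna10, a small Cajal body RNA gene, overlaps Ncapd2. These small RNAs have no row in the table used here, and their part in the counts was not tested.

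Of the remaining SMC and SNF2 genes, Hells stood low and Smchd1 near even. Hells, also called LSH, is an SNF2 enzyme needed for DNA methylation at repeats; it had 136 HP1 alpha counts and 342 input counts, a ratio of 0.642 (0.523 to 0.786). Its gene (ENSMUSG00000025001.7) lies on chromosome 19 from 38930262 to 38970470. Smchd1, a noncanonical SMC protein that acts in X inactivation, had 230 HP1 alpha and 402 input counts, for a ratio of 0.924 (0.782 to 1.09). The last group held ARID and MBD proteins outside the families above, and its 3 genes had ratios above 1, against 30.9% of all listed genes. Mbd5 (ENSMUSG00000036792.8) is a methyl-CpG-binding domain gene that spans 370 kb on chromosome 2 from 48949499 to 49319688. It had 376 HP1 alpha counts and 439 input counts, a ratio of 1.38 (1.20 to 1.59), above 89.4% of listed genes. Mbd6, its relative, had 72 HP1 alpha and 108 input counts, for a ratio of 1.08 (0.788 to 1.46), and Arid4b, a subunit of the Sin3 deacetylase complex, had 158 HP1 alpha and 244 input counts with 1.05 (0.851 to 1.28).

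Longer member genes had higher ratios, as did longer genes in the rest of the table. The 19 members under 50 kb had a median ratio of 0.785, against 0.783 for 1574 other listed genes of that span. Between 50 and 100 kb the medians were 0.898 for 9 members and 0.890 for 706 other genes. Between 100 and 200 kb the members had the lower median, 0.922 for 12 of them against 1.08 for 471 other genes. At 200 kb or more it was 1.25 for 4 members and 1.41 for 294 other genes. Across the 44 genes Spearman's rho between span and ratio was 0.50, against 0.61 across 3045 others, and it was 0.37 for the 40 members under 200 kb. These are descriptions across genes of the same 2 libraries, and whether introns were counted is not given in the sources used here.

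**Figure D3:**
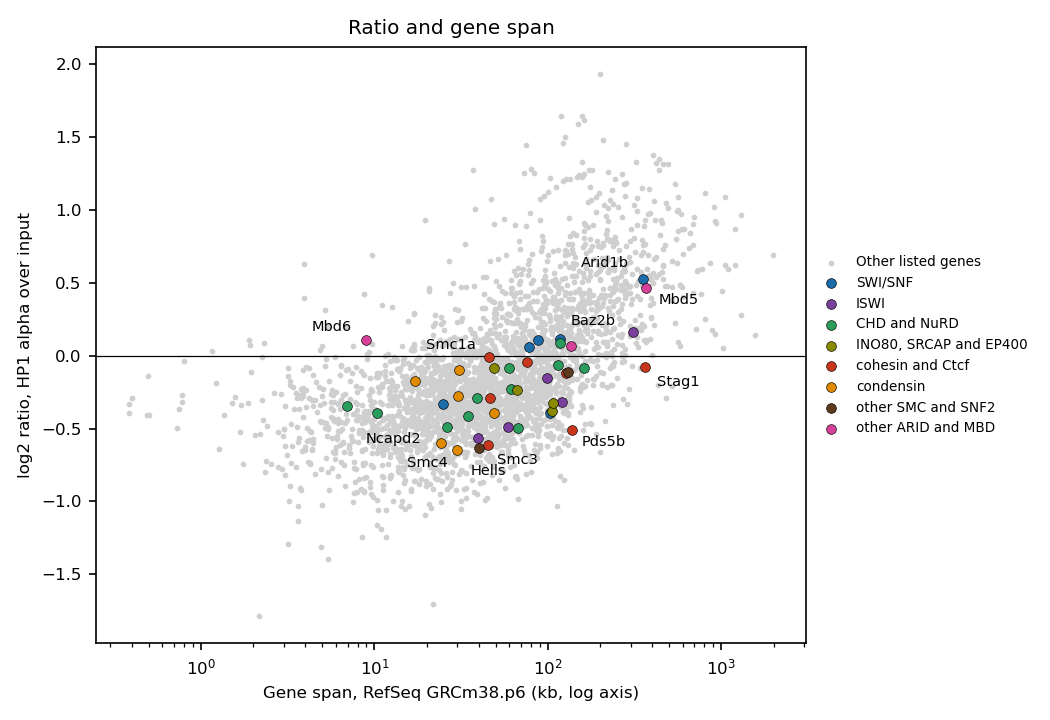
log2 ratio of HP1 alpha over input (vertical axis) against gene span in kb (log axis) for the members, coloured by complex, and the other listed genes in grey. Arid1b and Mbd5 lie within the cloud of long genes, while Stag1 at 361 kb and Pds5b at 137 kb lie at its lower edge.

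Set against genes of like span, Arid1b and Mbd5 lay near 1, and 12 members, 3 of them cohesin genes, had intervals below 1. Each ratio was divided by the median of the 200 listed genes nearest in span, and its interval carries the gene's own counting error alone. On this scale 12 members (27.3%) had intervals below 1 and 1 (2.27%) had an interval above 1, against 11.8% and 15.4% of listed genes with a span. The members' median log2 ratio on this scale was -0.080. Their median counts (177.5 HP1 alpha, 326.5 input) were above those of all listed genes (107 and 186). More counts make narrower intervals, so these shares do not compare genes of equal counts. Arid1b had 1.03 (0.920 to 1.15) and Mbd5 had 0.978 (0.850 to 1.12), both with intervals that held 1. The 1 member above was Mbd6, with 1.53 (1.12 to 2.07), whose span of 8.91 kb shares 4 bases with Dctn2 and 77 with Ddit3. The lowest were Pds5b with 0.656 (0.545 to 0.786) and Stag1 with 0.666 (0.568 to 0.781), followed by Smc3 with 0.758 (0.622 to 0.919). The other 9 were Smc4 and Ncapd2 of condensin, Hells, and the remodeller genes Chd1, Chd6, Baz1b, Baz2b, Pbrm1 and Ep400. Stag1 spans 361 kb, close to the spans of Arid1b and Mbd5, and its ratio was lower than theirs. Stag1 over Arid1b gave a ratio of ratios of 0.657 (0.541 to 0.798), and Stag1 over Mbd5 gave 0.684 (0.552 to 0.846). Stag1 over Baz2b, the other member of over 200 kb (311 kb), gave 0.843 (0.676 to 1.05), or 0.828 (0.664 to 1.03) relative to like span, and both intervals held 1. These comparisons were likewise made after the values were seen.

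Among paralogs, Arid1b stood above Arid1a and Chd1 below Chd2. These were 2 of the 11 pairs with both genes listed, and the other 9 had a ratio of ratios whose interval held 1. The intervals were not adjusted for the number of pairs. Arid1b over Arid1a gave 1.38 (1.15 to 1.65), and relative to genes of like span it turned to 0.890 (0.743 to 1.07). Chd1 over Chd2 gave 0.740 (0.556 to 0.980), or 0.833 (0.627 to 1.10) relative to like span. Stag1 over Stag2 gave 1.03 (0.804 to 1.31), Chd3 over Chd4 gave 0.949 (0.761 to 1.18), Chd6 over Chd8 gave 1.00 (0.769 to 1.30), and Smc4 over Smc2 gave 0.838 (0.640 to 1.10). Relative to like span, the intervals of Stag1 over Stag2 (0.760, 0.595 to 0.972) and Chd6 over Chd8 (0.730, 0.561 to 0.950) excluded 1. Baz1a over Baz1b gave 1.12 (0.774 to 1.61), and Ncaph2 over Ncaph gave 1.08 (0.766 to 1.53). Of the NuRD pairs, Mta1 over Mta2 gave 1.07 (0.771 to 1.497), Mbd2 over Mbd3 gave 1.08 (0.708 to 1.65) and Mta3 over Mta2 gave 1.40 (0.951 to 2.06), intervals that could hold a difference of up to their bounds. In 10 of the 11 pairs the gene of longer span had the higher ratio, the exception being Ncaph2 and Ncaph.

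**Figure D4:**
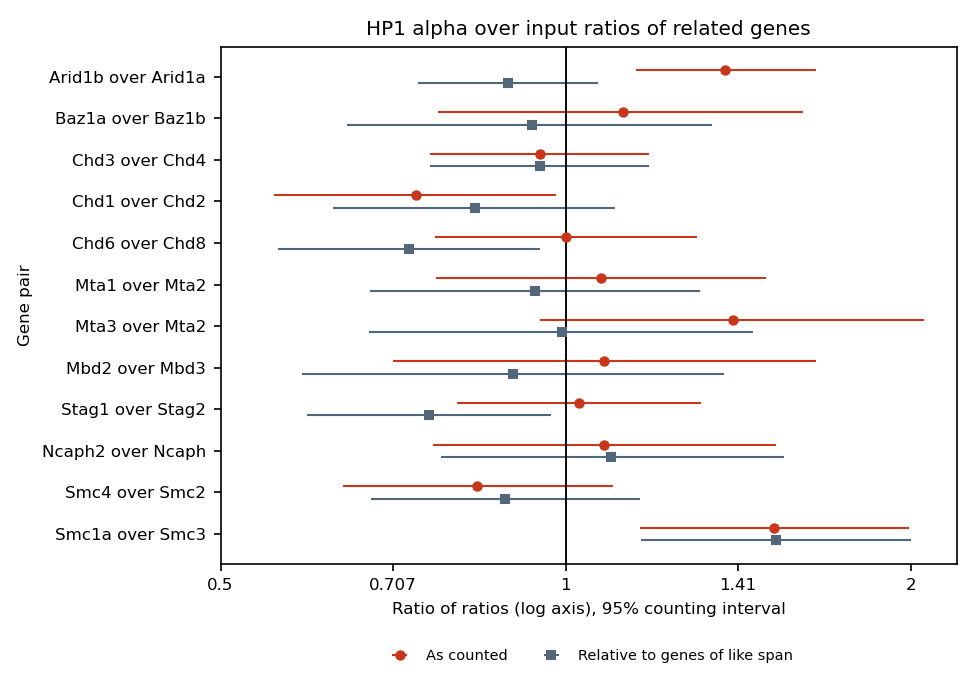
Ratio of the HP1 alpha over input ratios of related genes (horizontal log axis) with 95% counting intervals, as counted (red circles) and relative to genes of like span (grey squares). Arid1b over Arid1a lies above 1 as counted (1.38) and below it relative to like span (0.890), and Smc1a over Smc3 is 1.52 and 1.53.

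A pair of members overlapped another listed gene, so reads there may not be separable. Chd2 shares 1949 bases with 1810026B05Rik (Chaserr), the lncRNA that lies beside it and is known in mice to limit Chd2 expression. Chaserr had 39 HP1 alpha counts and 114 input counts, a ratio of 0.552 (0.374 to 0.801), and Chd2 itself had 0.958 (0.824 to 1.11). With so few HP1 alpha counts Chaserr was listed only through the input, and the listing limit alone kept its ratio below 1. Ncapg shares 3367 bases with Lcorl, which had 134 HP1 alpha and 149 input counts, for a ratio of 1.45 (1.14 to 1.85), against 0.933 for Ncapg. Among unlisted neighbours, Gm40353 shares 29304 bases with Pds5b, and Smim4 shares 33466 bases with Pbrm1, and their part in those counts was not tested. Chd4 and Ncapd2 lie 37.4 kb apart on chromosome 6 without overlap.

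The partner genes, which the symbol rule did not take, encode subunits of the same complexes, associated proteins or related enzymes. Their ratios ran wider than those of the members, between 0.526 for Phf10 and 1.60 for Hdac8. Of 67 such genes 23 were listed, with 0 higher and 0 lower at 2-fold, 9 intervals below 1 (32.6% of all listed genes) and 2 above (15.4%), and a median log2 ratio of -0.31, beside -0.21 for all listed genes. The intervals below 1 numbered 4 with TMM and 3 with DESeq2 factors, and those above 1 numbered 3 with either. Relative to genes of like span, 5 partners lay below 1 and 4 above, beside 12 and 1 of the 44 members. Of the 23 partners, 9 had fewer than 100 HP1 alpha counts and were listed only through the input, as were 1433 of all 3134 listed genes. For Phf10, Daxx and Brd7 the listing limit alone kept the ratio below 1. Phf10 and Daxx were among the partners with intervals below 1. Phf10, a PBAF subunit named here after its value was seen, had 44 HP1 alpha and 135 input counts with 0.526 (0.366 to 0.745). Trrap, the scaffold of the TIP60 acetyltransferase complex, had 544 HP1 alpha counts and 1017 input counts, a ratio of 0.864 (0.777 to 0.960). Top2a, the topoisomerase that acts with condensin in mitosis, had 336 HP1 alpha and 754 input counts, for a ratio of 0.720 (0.631 to 0.819). Rbbp4, a histone chaperone of NuRD, had 161 HP1 alpha and 395 input counts with 0.658 (0.545 to 0.793). Atrx, an SNF2 enzyme of heterochromatin, had 302 HP1 alpha and 605 input counts with 0.806 (0.700 to 0.927). Adnp, a partner of Chd4 and HP1, had 226 HP1 alpha and 398 input counts with 0.917 (0.775 to 1.08). The 2 partners with intervals above 1 were Zmynd8, a NuRD-associated reader with 372 HP1 alpha and 468 input counts, for a ratio of 1.28 (1.12 to 1.47), and Hdac8. Hdac8, named here after its value was seen, deacetylates Smc3 and had 232 HP1 alpha counts and 234 input counts, a ratio of 1.60 (1.33 to 1.93). Its span of 221 kb makes it the longest gene of the 23, and relative to genes of like span its interval was 1.03 to 1.49.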

How the data were processed

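One HP1 alpha library and 1 input library of NIH3T3 cells were compared. The authors deposited read counts per gene, made with STAR 2.6.0c and featureCounts on GRCm38 per the submitters' processing notes, which give no settings. How strand, introns, multiple overlaps and PCR duplicates were handled is not stated there. A fold column is also deposited; per the file headers it is normalised to total mapped reads, and in this table that ratio is the count ratio times 1.66. The table lists genes with at least 100 counts in either library, so its totals are not sequencing depths. Further columns of sample values numbered 0.

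Members and gene lists were chosen with earlier results of these data known. Every member is named; those with the most extreme ratios or most counts are described most fully. Genes were placed by RefSeq GRCm38.p6, 2969 by symbol, 120 by synonym and 45 not at all. Ratios used listed totals, with Clopper-Pearson 95% intervals and a pseudocount of 0.5 for log2 values. Ratios of ratios used the exact conditional odds ratio (scipy 1.17.1). Calls required 2-fold and an interval excluding 1; the script was tested on simulated data. Alternatives were TMM (edgeR 4.0.16) and DESeq2 1.42.0 size factors, the authors' constant, totals without the 10 most abundant genes, another pseudocount, count minimums, 1.5-fold, overlap, and genes of like span. With 1 library per group no p-value was computed. Reads may include PCR copies, which intervals do not cover.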

Additional observations from a re-analysis of the deposited data

How the results depend on the processing

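No paired analysis was possible because there is 1 HP1 alpha library and 1 input library. The number of higher members, 0 as reported, was 0 under every alternative run, and the number of lower members, 0 as reported, became 4 only at a threshold of 1.5-fold. The median log2 ratio of the members, -0.23, was -0.035 with TMM factors, -0.024 with DESeq2 factors, -0.19 with the authors' constant, -0.11 for the 27 members with at least 400 counts, -0.15 with at least 100 counts in both libraries (33 members) and -0.080 relative to genes of like span. The members' share of all counts, 1.64% of the HP1 alpha and 1.84% of the input library's listed total, was 2.09% and 2.49% at a minimum of 400 counts, and 1.57% and 1.77% without the 2 members that overlap another listed gene, because fewer genes enter. Relative to genes of like span, Mta2 turned to 1.05, Mbd5 to 0.978 and Arid1b over Arid1a to 0.890. The most values changed relative to genes of like span. Of the 44 ratios and 11 ratios of paralogs, 14 left their counting interval, in both directions (among them Smc4, Ncapd2, Chd3, Chd4, Stag1 and Baz2b). A further 3, those just given, also left their counting intervals, which excluded 1, and crossed to the other side of 1. Several ratios whose counting intervals held 1 crossed it too, among them Srcap to 1.12, Ncaph2 to 1.14, Baz2b to 0.805 and Stag1 over Stag2 to 0.760. Single ratios left their counting interval for 8 of the 44 members with DESeq2 factors and for 4 with TMM factors, all toward higher values. This held for 0 members with the authors' constant, the larger pseudocount or totals without the 10 most abundant genes. Members with the fewest counts have the widest intervals: the interval of Ncapg, 0.673 to 1.28, could hold a difference of either direction.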
